A study of Mus musculus with 12 samples.

Results

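The atrial marker genes Nppa, Myl4, Myl7, Mybphl, Bmp10, Vsnl1, Dkk3 and Stard10 were followed through 12 arrays of whole mouse heart. A probe set was taken as theirs when the platform annotation gave exactly 1 of these symbols for it. This gave 11 probe sets for 8 genes, out of 18193 genes that the annotation names alone on at least 1 probe set. Where a gene had several, its brightest one by mean signal stands for it here, and Myl4, Dkk3 and Vsnl1 each had a second one.

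There were 4 groups of 3 arrays each. DN-MCU adults and WT adults were 42 days old and all labelled male, and DN-MCU neonates and WT neonates were 1 day old with no sex given, so sex and age cannot be told apart. All mice were of the outbred CD1 stock, and the WT animals were littermates of mice carrying a dominant-negative construct of MCU, the pore of the mitochondrial calcium uniporter. The promoter of the construct, and thus the heart cells it acts in, is not given here by any label. RNA was taken from the whole excised heart, so atria and ventricles were in 1 extract. No label says from which litters or cages the samples came, and p values measure only the spread between these samples.

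Atrial and ventricular heart muscle share most of their contractile machinery, but the atria use their own myosin light chains and secrete peptide hormones in granules. In the mouse, Nppa, Myl4 and Myl7 are also made in ventricular muscle before birth and are switched off there during maturation, and Nppa is switched on again in the ventricle under load. Genes of this kind are therefore used both as markers of how much atrium a sample holds and as markers of the state of the muscle. Bmp10, a ligand of the bone morphogenetic protein family, is made by the ventricular trabeculae of the embryo and by the right atrium afterwards.

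The genotype labels were checked on Mcu itself. One of its probe sets lay between 8.44 and 10.41 on the log2 scale in the 6 DN-MCU arrays and between 2.45 and 4.55 in the 6 WT arrays, while the other probe set lay between 7.39 and 8.14 in DN-MCU arrays and between 7.41 and 8.18 in WT arrays. Array medians were 3.24 to 3.46. The adults were more scattered than the neonates: the median SD of a probe set was 0.4 in DN-MCU adults and 0.226 in WT adults, against 0.141 in DN-MCU neonates and 0.132 in WT neonates. DN-MCU adult 3 and WT adult 1 stood apart from their groups, with mean correlations to their group of 0.931 and 0.97, so the count of adult calls is also given without both. Markers of other tissues varied among the adults. Scgb1a1, an airway protein, ran between 4.27 (DN-MCU adult 3) and 13.11 (WT adult 2). Ttr, a liver protein, was higher in all DN-MCU adults than in any WT adult (3.18, SE 0.53, limma adjusted p = 0.0896). All 4 measured adipocyte markers had a lower mean in DN-MCU adults (median -0.55), as 53% of all probe sets did. Their mean signal was 11.17, 12.14 and 9.11 in DN-MCU adults and 11.73, 10.91 and 11.44 in WT adults. The groups thus overlapped, with DN-MCU adult 2 the highest and DN-MCU adult 3 the lowest. Rag1, a marker of developing lymphocytes, read 9.86 in the first DN-MCU adult, 4.93 in the first WT adult and 2.6 to 3.68 elsewhere. Whether these tissues were in the samples, and their part in the adult results, was not tested. All values are log2 signals, and levels are compared within a probe set only.

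The start regions of 7 of the 8 genes were found in RefSeq (build GRCm38.p6), and 4 are printed because their genes cover the patterns described further on. Mybphl, Myl7 and Nppa moved together across the neonatal arrays, and Bmp10 did not follow them. Each line gives the 250 bases before the gene's start, 5′ to 3′ on the gene's own strand. Capitals mark 3 motifs searched on both strands: GATAA, read by GATA factors (TTATC on the other strand), TNAAGTG, read by Nkx2-5, and GGTGTGA, read by T-box factors (TCACACC on the other strand).
Nppa, chr4:148000472-148000721, plus strand: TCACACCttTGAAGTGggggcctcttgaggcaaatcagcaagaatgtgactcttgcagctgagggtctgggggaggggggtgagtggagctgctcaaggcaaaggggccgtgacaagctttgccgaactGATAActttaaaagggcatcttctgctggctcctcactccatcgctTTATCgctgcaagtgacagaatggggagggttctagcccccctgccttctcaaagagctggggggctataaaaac
Myl7, chr11:5898783-5899032, minus strand: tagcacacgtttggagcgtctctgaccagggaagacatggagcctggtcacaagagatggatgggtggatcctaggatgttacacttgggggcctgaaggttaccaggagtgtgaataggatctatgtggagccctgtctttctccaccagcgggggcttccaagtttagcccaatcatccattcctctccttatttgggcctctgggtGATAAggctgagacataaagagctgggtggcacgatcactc
Mybphl, chr3:108364661-108364910, plus strand: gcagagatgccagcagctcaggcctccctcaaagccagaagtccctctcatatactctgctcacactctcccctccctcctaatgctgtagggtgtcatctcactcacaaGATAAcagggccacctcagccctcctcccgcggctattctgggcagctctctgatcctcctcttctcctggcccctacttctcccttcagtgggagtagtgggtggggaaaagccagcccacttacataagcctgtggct
Bmp10, chr6:87428744-87428993, plus strand: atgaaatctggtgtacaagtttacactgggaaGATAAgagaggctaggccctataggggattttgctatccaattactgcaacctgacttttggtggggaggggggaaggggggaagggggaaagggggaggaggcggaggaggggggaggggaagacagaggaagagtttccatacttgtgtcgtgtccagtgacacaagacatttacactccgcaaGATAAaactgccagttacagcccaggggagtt

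These motifs were chosen with the sequences in view, and a match is a string of letters and not a shown binding site. GATAA occurred in 5 of the 8 windows of these genes (Vsnl1 has 2 windows), those of Nppa, Myl7, Mybphl, Bmp10 and Stard10, and in 22.6% of all 32851 RefSeq windows of this length. Nppa held it 121 and 75 bases before the start, Bmp10 218 and 32 bases before, Mybphl 140 and Myl7 41. TNAAGTG was found in the Nppa window alone among these genes, 241 bases before the start, and in 10.1% of all windows. GGTGTGA was found in Nppa, 250 bases before the start, and in Stard10, 215 bases before it, and in 3.33% of all windows. No matches overlapped. The Myl4 window and both Vsnl1 windows held none of the 3 motifs. The Myl4 window (chr11:104550413-104550662) lay inside the annotated gene, which begins at 104546017, and the bases before that first start were not searched.

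Among the secreted proteins, Nppa, the precursor of atrial natriuretic peptide, which promotes salt and water loss, was brighter than 99.9% of probe sets. Its signal was 15.33, 15.31 and 15.21 in DN-MCU adults and 14.87, 15.00 and 14.96 in WT adults. In neonates it was 14.24, 14.58 and 13.94 with DN-MCU and 14.49, 14.54 and 14.47 in WT hearts. Every adult array lay above every neonatal array, the adult genotypes did not overlap, and the DN-MCU neonates spanned the WT neonates on both sides. The order of the group means was DN-MCU adult, WT adult, WT neonate and DN-MCU neonate, and the last pair did not differ beyond their spread. The brightest value of any probe set was 15.93.

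Bmp10 was dim. It read 3.90, 3.75 and 3.88 in DN-MCU adults and 3.92, 3.83 and 3.86 in WT adults, close to the median of all values (3.35). Neonatal values were 4.18, 4.14 and 3.95 with DN-MCU and 4.38, 4.67 and 5.68 in WT hearts. The WT neonates were the highest group and overlapped no other, with WT neonate 3 far above the rest. DN-MCU neonates came next, and the 2 adult groups could not be separated.

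Dkk3, a secreted glycoprotein of the Dickkopf family, gave 9.46, 9.81 and 9.12 in DN-MCU adults and 9.39, 9.49 and 9.52 in WT adults. It gave 9.19, 9.98 and 8.77 in DN-MCU neonates and 9.51, 10.15 and 9.59 in WT neonates. WT neonates had the highest mean and DN-MCU neonates the lowest, but no neighbours in this order differed beyond their spread. Its second probe set, between 8.20 and 9.56, ranked DN-MCU neonates 1 to 3 in the same way.

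**Figure D1:**
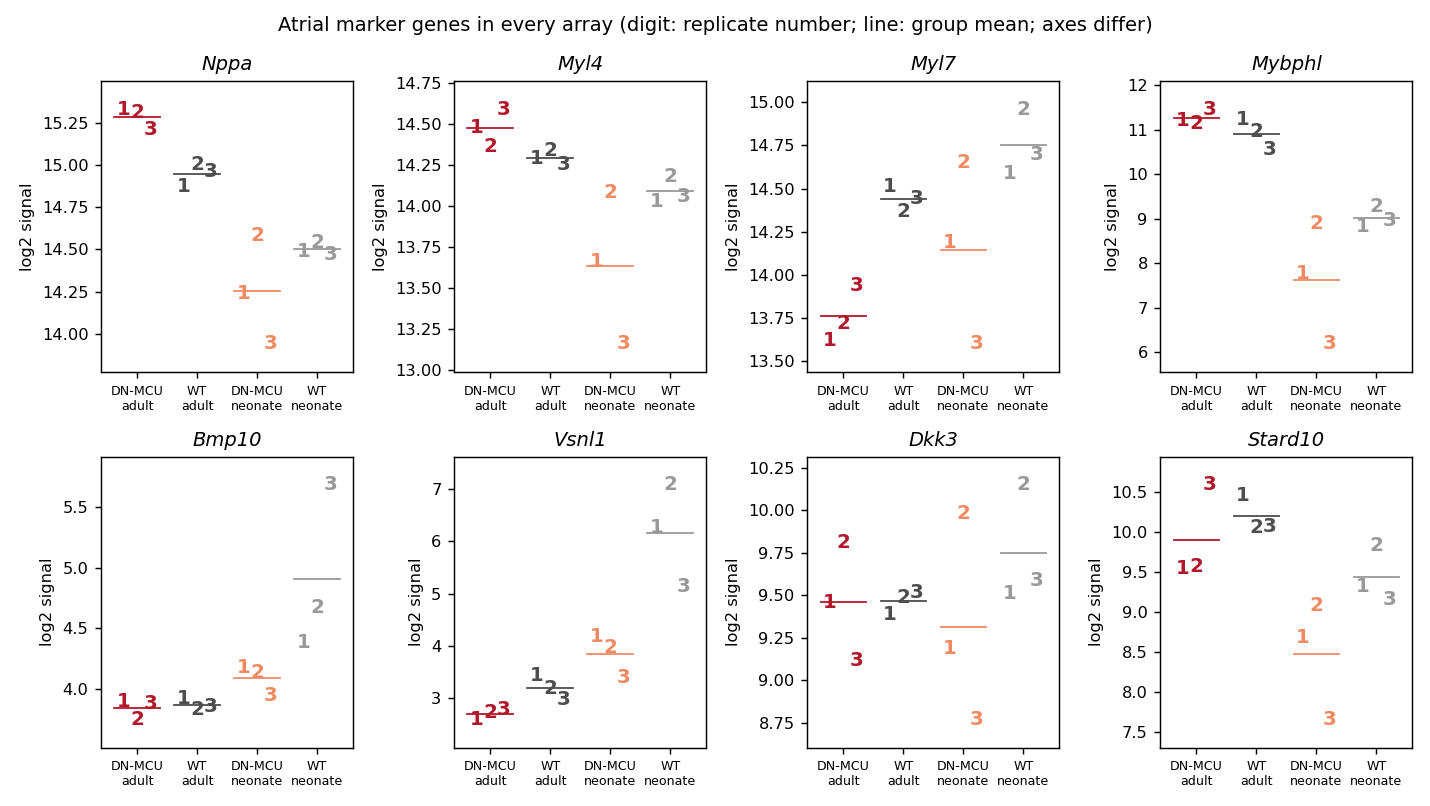
Log2 signal (vertical axis, scaled separately in each panel) of the 8 atrial marker genes in the 4 groups; each digit is the array with that replicate number and each line a group mean of 3 arrays. In the DN-MCU neonates array 3 is the lowest of all 6 neonatal arrays in each panel.

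Of the sarcomere genes, Myl7 encodes the regulatory light chain of atrial myosin. It stood at 13.62, 13.72 and 13.94 in DN-MCU adults and 14.51, 14.37 and 14.44 in WT adults. The neonatal values were 14.19, 14.65 and 13.60 with DN-MCU and 14.59, 14.96 and 14.70 in WT hearts. DN-MCU adults were the lowest group, and their only overlap was with DN-MCU neonate 3. WT neonates had the highest mean, followed by WT adults, and the 2 WT groups did not overlap. DN-MCU neonates were spread widely enough to overlap every other group.

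Myl4 encodes the essential light chain of atrial myosin, the partner of Myl7 on the same myosin heads. Its values were 14.48, 14.36 and 14.59 in DN-MCU adults and 14.29, 14.34 and 14.25 in WT adults. They were 13.66, 14.08 and 13.16 in DN-MCU neonates and 14.03, 14.18 and 14.06 in WT neonates. The order of means was DN-MCU adult, WT adult, WT neonate and DN-MCU neonate, as for Nppa, with overlap between the neonatal groups alone. The second Myl4 probe set was dim (2.89 to 4.13 over all arrays).

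Mybphl, a myosin-binding protein of atrial sarcomeres, differed widely between the ages. DN-MCU adults had 11.21, 11.14 and 11.46, and WT adults 11.23, 10.95 and 10.55. DN-MCU neonates had 7.77, 8.89 and 6.19, and WT neonates 8.82, 9.28 and 8.95. All adult arrays exceeded all neonatal arrays, and the genotypes overlapped at both ages. The SD was 1.36 in DN-MCU neonates and 0.24 in WT neonates (n = 3 each).

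Vsnl1, a calcium sensor of the neuronal calcium sensor family, read 2.59, 2.73 and 2.79 in DN-MCU adults and 3.43, 3.18 and 2.97 in WT adults, near or under the median of all values. In DN-MCU neonates it read 4.18, 3.97 and 3.39, and in WT neonates 6.27, 7.08 and 5.14. WT neonates were separate from every other group. The second Vsnl1 probe set stayed between 2.11 and 2.33 in all arrays and was the 1 member probe set of 11 that failed the filter on dim signals.

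Stard10, which carries lipids between membranes through its START domain, had 9.55, 9.57 and 10.59 in DN-MCU adults and 10.46, 10.06 and 10.07 in WT adults. It had 8.68, 9.09 and 7.66 in DN-MCU neonates and 9.32, 9.83 and 9.16 in WT neonates. WT adults had the highest mean and overlapped DN-MCU adults, because DN-MCU adult 3 was the highest of all 12 arrays. The neonatal groups did not overlap.

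In adult hearts DN-MCU was compared with WT, and the mean differences of the atrial genes had both signs. Nppa and Myl4 were higher in all 3 DN-MCU arrays than in any WT array, and Myl7 and Vsnl1 were lower in all 3. This is 4 of 8 genes with no overlap, against 17.2% of all probe sets (8.7% higher, 8.46% lower). None of the 8 passed limma's test at an adjusted p under 0.05, which 0.463% of the 24176 probe sets did, and 2 had an unadjusted p under 0.05 (10.3% of all). The medians were nearly equal, -0.02 over the 8 genes and -0.02 over all probe sets.

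By size, the adult difference was -0.68 for Myl7 (SE 0.16, limma adjusted p = 0.206) and 0.18 for its partner chain Myl4 (SE 0.15, adjusted p = 0.786). Nppa differed by 0.34 (SE 0.15, limma adjusted p = 0.51) and Mybphl by 0.36 (SE 0.23, adjusted p = 0.688). The Vsnl1 difference of -0.49 (SE 0.18, limma adjusted p = 0.443) lies between signals near background. The 3 genes left, Bmp10 (-0.03, SE 0.15), Dkk3 (-0.00, SE 0.22) and Stard10 (-0.29, SE 0.33), differed by less than 1 SE. Stard10 was at -0.63 without DN-MCU adult 3 and at -0.12 without DN-MCU adult 1, and Mybphl was at 0.18 without WT adult 3. In all, 3 genes had a higher and 5 a lower mean, where 53% of all probe sets had a lower one. Myl7 passed when single arrays were weighted by their quality (limma adjusted p = 0.0285) and in no other alternative, and without both DN-MCU adult 3 and WT adult 1 no member passed.

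**Figure D2:**
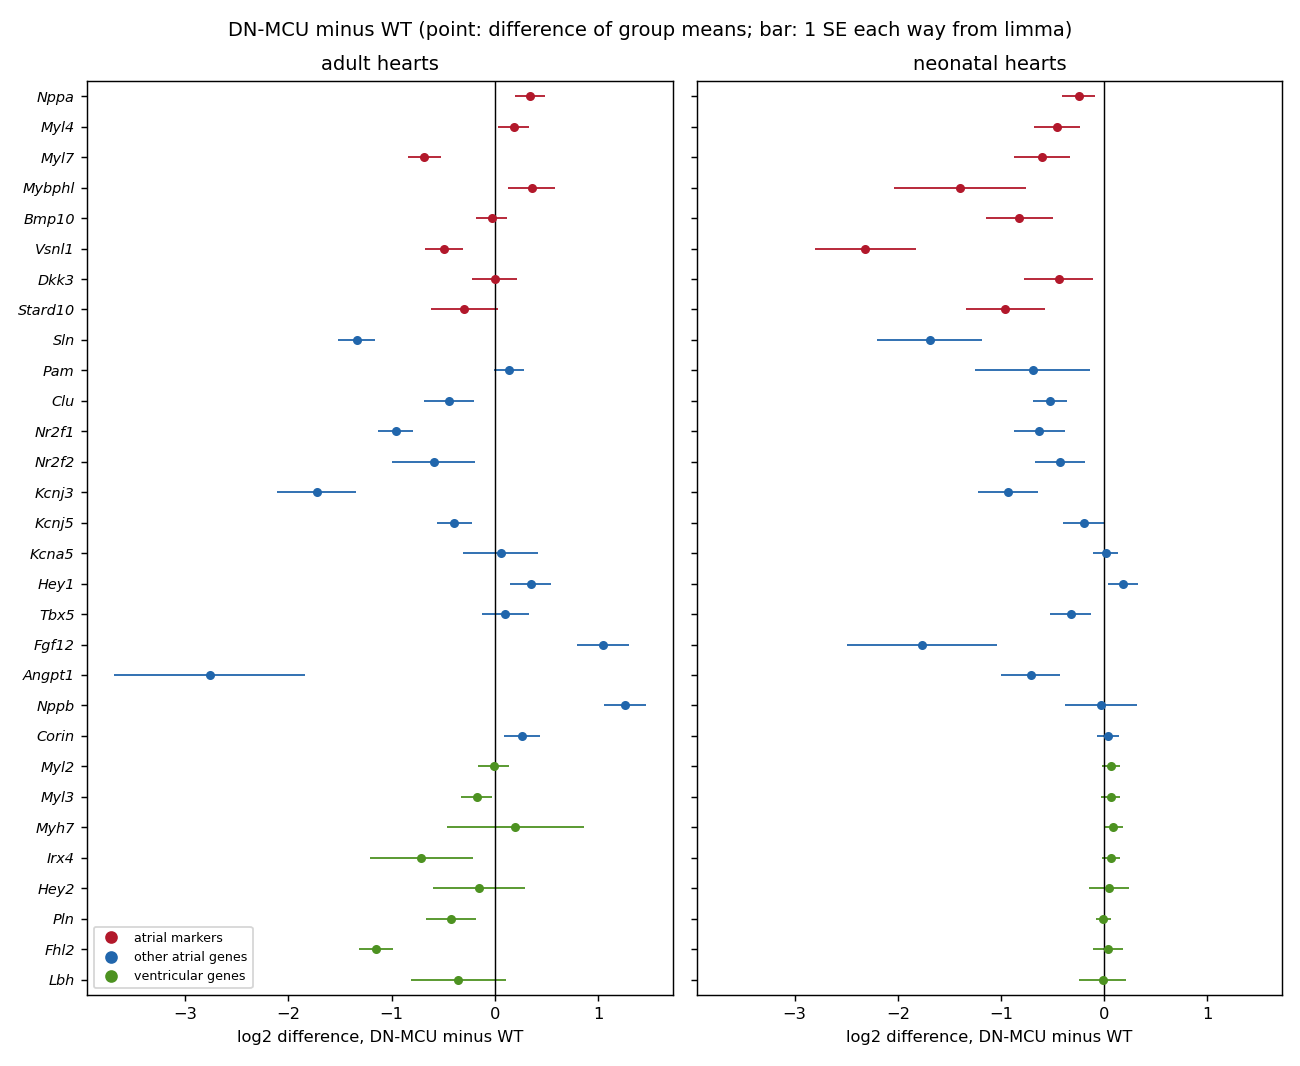
Difference of log2 group means, DN-MCU minus WT (horizontal axis), in adult hearts (left) and neonatal hearts (right), for the atrial markers, other atrial genes and ventricular genes; points are differences and bars 1 SE each way from limma (n = 3 per group). The atrial markers lie on both sides of 0 in adults, between -0.68 and 0.36, and all below 0 in neonates, between -2.32 and -0.25, while the neonatal ventricular genes lie close to 0.

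In neonatal hearts all 8 atrial genes had a lower mean with DN-MCU, as 46.8% of all probe sets did. Their median difference was -0.71, against 0.01 over all probe sets. In RNA from a whole heart, fewer atrial cells and less of these transcripts per cell cannot be told apart. None of the 8 passed limma's test, which 0.00414% of probe sets did (1 of 24176), and 3 had an unadjusted p under 0.05 (7.27% of all). Bmp10, Vsnl1 and Stard10 were lower in all 3 DN-MCU arrays than in any WT array, 3 of 8 genes where 5.13% of all probe sets were.

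The sizes differed between the genes. Vsnl1 was lower by the most, -2.32 (SE 0.49, limma adjusted p = 0.479), with its DN-MCU level close to background. Mybphl followed at -1.40 (SE 0.64, limma adjusted p = 0.7), then Stard10 at -0.96 (SE 0.38, adjusted p = 0.679) and Bmp10 at -0.82 (SE 0.33, adjusted p = 0.681). The light chains were close to each other, Myl7 at -0.60 (SE 0.27, limma adjusted p = 0.693) and Myl4 at -0.46 (SE 0.22, adjusted p = 0.717). Dkk3 (-0.44, SE 0.33) and Nppa (-0.25, SE 0.16) were the smallest, and the second probe sets of Dkk3 (-0.58, SE 0.27) and Myl4 (-0.55, SE 0.17) had the same sign. Each of these differences kept its sign when any 1 neonatal array was left out, but their sizes depended on single arrays: without DN-MCU neonate 3 Mybphl was at -0.69, Myl7 at -0.33, Myl4 at -0.22, Dkk3 at -0.17, Stard10 at -0.55 and Nppa at -0.09, and without WT neonate 3 Bmp10 was at -0.43.

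Array by array, the neonatal values of these genes varied in step. All 8 lay below their group mean in DN-MCU neonate 3, by a median of -0.51 and by up to -1.43 for Mybphl, and all 8 lay above it in DN-MCU neonate 2, by a median of 0.47. Over all probe sets 47.7% lay below the group mean in DN-MCU neonate 3 and 51.8% in DN-MCU neonate 2. DN-MCU neonate 3 was the lowest of the 6 neonatal arrays for 8 of 8 genes and for 14.6% of all probe sets. The order 3, 1, 2 from low to high held for 6 of 8 genes (Nppa, Myl4, Myl7, Mybphl, Dkk3 and Stard10) and for 19.7% of all probe sets. In WT neonates 7 of 8 genes lay above the mean in array 2, where 46.7% of all probe sets lay below it. WT neonate 2 was the highest of the 6 neonatal arrays for 6 of 8 genes and for 16.7% of all probe sets, so for most of these genes the arrays numbered 2 were high in both genotypes. Such counts rest on 3 arrays a group and on genes of 1 tissue, which are not replicates.

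The step between arrays differed from gene to gene. DN-MCU neonate 3 was below DN-MCU neonate 2 by a log2 difference of -2.7 for Mybphl, -1.43 for Stard10, -1.22 for Dkk3, -1.05 for Myl7, -0.91 for Myl4 and -0.64 for Nppa. For Vsnl1 the step was -0.58 and for Bmp10 -0.19. DN-MCU neonate 2 was at -2.19 from the WT neonate mean for Vsnl1 and at -0.77 for Bmp10, while the 6 others were between -0.34 and 0.23 there. Stard10 shared both features, since it took the order 3, 1, 2 and its DN-MCU neonates were all below its WT neonates.

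**Figure D3:**
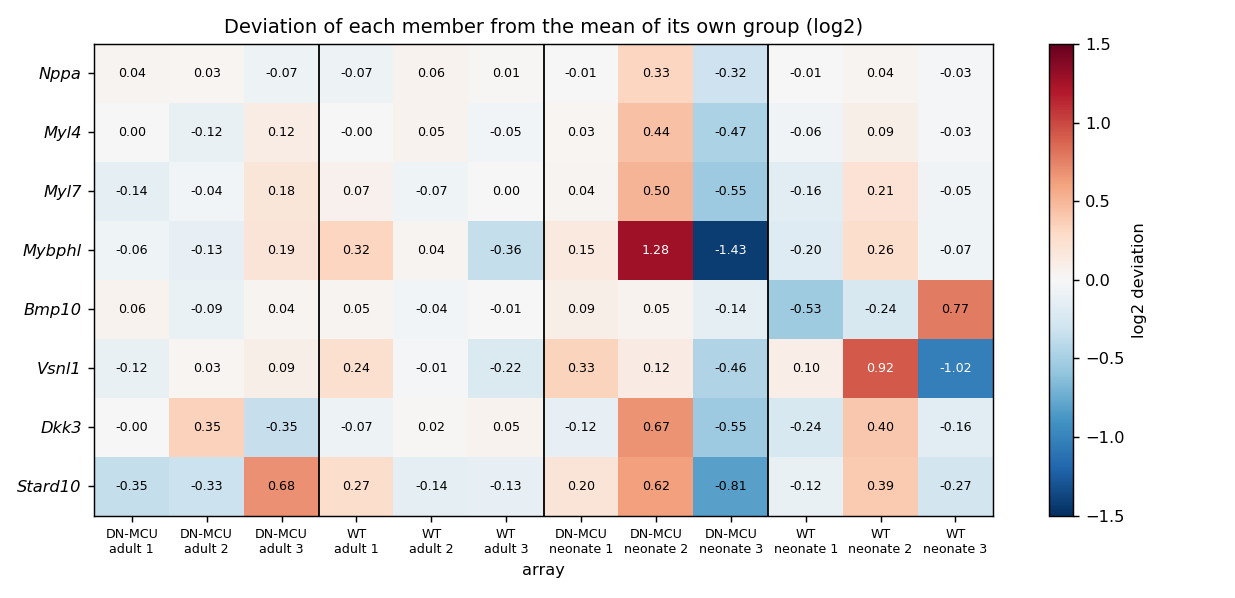
Deviation of each gene (row) in each array (column) from the mean of its own group, on the log2 scale, with the value printed in each cell and the colour scale cut at -1.5 and 1.5. The column of DN-MCU neonate 3 is negative for all 8 genes and that of DN-MCU neonate 2 positive for all 8; no adult column has 1 sign.

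As a measure of the same pattern, each gene's deviations were correlated with the mean of the other 7 over the 6 neonatal arrays. All genes share these arrays, and the r are a description. The r was 0.993 for Myl7, 0.98 for Stard10, 0.965 for Myl4, 0.952 for Mybphl, 0.936 for Nppa and 0.935 for Dkk3. It was 0.366 for Vsnl1 and -0.0825 for Bmp10. In the 6 adult arrays the same measure ran from -0.886 for Nppa to 0.81 for Vsnl1, and Dkk3 was at -0.799. The other adult r were 0.792 for Mybphl, 0.744 for Myl7, 0.547 for Stard10, 0.521 for Myl4 and 0.308 for Bmp10, so Nppa and Dkk3 ran against the rest there.

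No label says that the replicate numbers pair the neonates. They were taken as pairs from weak correlations in these same data, given with the processing. Between same-numbered arrays, DN-MCU was lower in 3 of 3 pairs for 7 genes and in 2 of 3 for Nppa (-0.25, 0.04 and -0.54). Shares over all probe sets were not computed for counts of pairs, which reuse the arrays behind the group means and add no further evidence to them. For Mybphl the pairs differed by -1.06, -0.39 and -2.76, and for Vsnl1 by -2.09, -3.11 and -1.75. Of the pairs, number 2 was the closest to 0 for 5 of 8 genes. With the number as a block still none of the members passed.

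Other genes of atrial muscle were set beside the members. Of 18 such genes 14 were measured, and in neonates 11 had a lower and 3 a higher mean with DN-MCU, with a median of -0.48 (46.8% of all probe sets were lower). None passed in limma, and 6 had an unadjusted p under 0.05 (7.27% of all). Sln, sarcolipin, an inhibitor of the calcium pump in atrial muscle, had 11.37, 12.24 and 10.17 in DN-MCU neonates and 12.77, 13.36 and 12.72 in WT neonates. Its arrays took the same order as the 6 genes above and did not overlap between genotypes (-1.69, SE 0.51, limma adjusted p = 0.591). Fgf12, a modulator of sodium channels, had 6.82, 8.55 and 5.48 in DN-MCU neonates and 8.38, 8.77 and 8.98 in WT neonates (-1.77, SE 0.73, limma adjusted p = 0.681). Kcnj3, a subunit of the atrial acetylcholine-gated potassium channel, differed by -0.93 (SE 0.29, limma adjusted p = 0.599). Over the 6 neonatal arrays 10 of the 14 genes correlated positively with the mean of the members, between 0.233 for Hey1 and 0.996 for Sln. The other 4 ran the other way, Kcna5 at -0.94, Pam at -0.653, Corin at -0.456 and Nppb at -0.209. By r, Hey1 ranked 8468 and Nppb 12496 among 20773 probe sets, so a positive r was common over all of them. Nppb, brain natriuretic peptide, had 12.23, 13.46 and 13.53 in DN-MCU neonates and 13.08, 13.01 and 13.23 in WT neonates.

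In adults the 14 other atrial genes were split 7 and 7, with a median of -0.17 (53% of all probe sets were lower). None passed in limma, and 6 had an unadjusted p under 0.05 (10.3% of all). The Sln signal was 12.34, 12.36 and 11.98 in DN-MCU adults and 13.45, 13.61 and 13.62 in WT adults, lower in all 3 arrays (-1.34, SE 0.18, limma adjusted p = 0.0543). Kcnj3 was at -1.72 (SE 0.38, limma adjusted p = 0.169) and Nr2f1, a factor of atrial identity, at -0.96 (SE 0.17, adjusted p = 0.0989). On the other side were Nppb, at 14.00, 13.95 and 14.37 in DN-MCU adults and 12.73, 12.72 and 13.09 in WT adults (1.27, SE 0.20, limma adjusted p = 0.0849), and Fgf12 (1.05, SE 0.25, adjusted p = 0.205). The dimmer probe sets of Fgf12 were at 0.54 (SE 0.60) and 0.38 (SE 0.61). Corin, which cleaves the Nppa precursor, differed by 0.26 (SE 0.17). Their calls depended on the fit: 3 of the 14 passed when all 12 arrays shared 1 spread and 4 with array weights, and without DN-MCU adult 3 there were 2, Sln (limma adjusted p = 0.0454) and Fgf12 (0.0468).

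Around the natriuretic peptides, 10 of 12 genes were measured, with Nppc and the receptor Npr1 below the filter. None passed in limma in adults (4 higher and 6 lower means, median -0.04) or in neonates (5 and 5, median -0.01). Of all probe sets 53% had a lower mean in adults and 46.8% in neonates. On the brightest probe sets an unadjusted p under 0.05 was found for 2 in adults (10.3% of all) and 0 in neonates (7.27% of all). Dimmer probe sets of Npr3 (limma unadjusted p = 0.00506 and 0.0108) and Pde5a (0.0119) were under 0.05 in neonates and were not counted. Of 11 transcription factors known to act on atrial genes 10 were measured, each by its brightest probe set. At either age 0 passed in limma, with 1 at an unadjusted p under 0.05 at each (10.3% of all in adults, 7.27% in neonates). In neonates this was Nkx2-5, lower in all 3 DN-MCU arrays (-0.32, SE 0.09, limma adjusted p = 0.569). The brightest probe set of Tbx5 was at -0.33 (SE 0.20, limma adjusted p = 0.756). Another one, not counted above, was lower in all 3 DN-MCU arrays, at 2.80, 2.79 and 2.70 against 3.62, 3.37 and 3.58 in WT neonates. Its unadjusted p in limma was 0.000154 (adjusted p = 0.265). The DN-MCU values were under the filter level of 3.35 and the WT values just above it, so no size is given.

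Of 9 ventricular genes 8 were measured, and in neonates their median was 0.05, with 6 higher and 2 lower means (46.8% of all probe sets were lower). None passed in limma, and 0 had an unadjusted p under 0.05 (7.27% of all). Myl2 and Myl3, the light chains of ventricular myosin, differed by 0.07 (SE 0.09) and 0.06 (SE 0.09), and the ventricular repressor Hey2 by 0.04 (SE 0.19). The mean over the 8 genes was 13.1, 12.98 and 12.98 in DN-MCU neonates and 13.1, 12.89 and 12.94 in WT neonates. For the 8 atrial markers the same mean was 9.51, 9.92 and 8.83 in DN-MCU neonates and 10.18, 10.59 and 10.22 in WT neonates. The mean of 10 genes of muscle in both chambers stayed between 14.37 and 14.52 in all 6 arrays. Of these genes 9 had a lower and 1 a higher mean in DN-MCU neonates, with a median of -0.03 (46.8% of all probe sets were lower). In adults the ventricular median was -0.26, with 1 higher and 7 lower means (53% of all probe sets were lower). None passed in limma, and 1 had an unadjusted p under 0.05 (10.3% of all): Fhl2, a LIM protein, was lower in all 3 DN-MCU adults (-1.15, SE 0.17, limma adjusted p = 0.0668). Irx4, a ventricular transcription factor, was at -0.71 (SE 0.50) and Myl2 at -0.01 (SE 0.15).

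**Figure D4:**
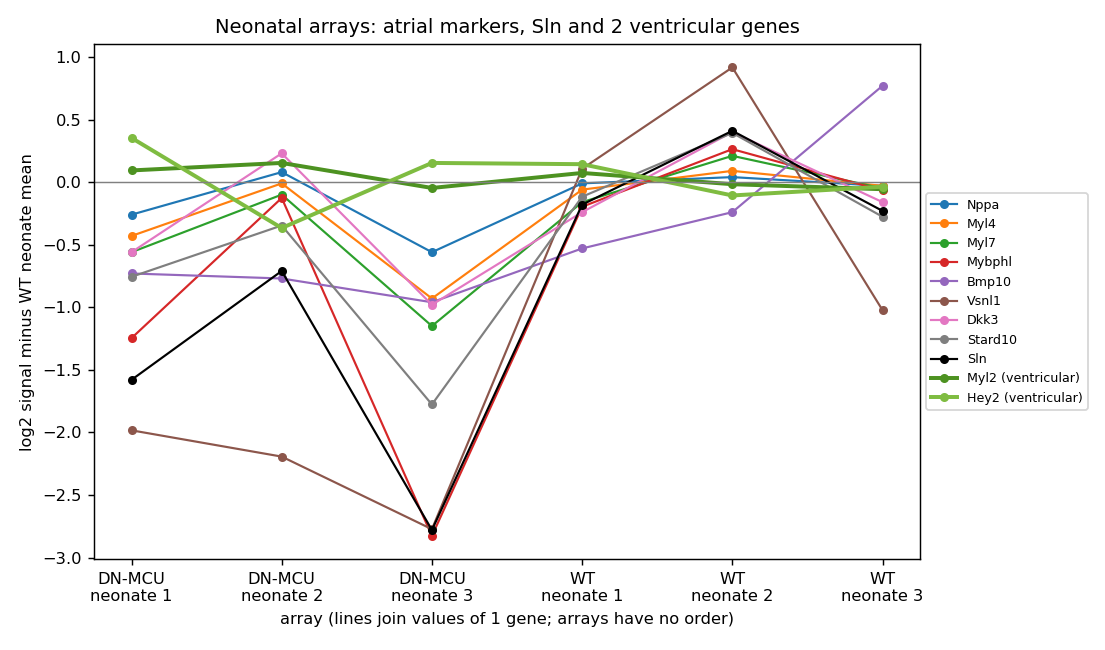
Log2 signal minus the WT neonate mean of the same gene (vertical axis) in the 6 neonatal arrays (horizontal axis) for the 8 atrial markers, Sln and the ventricular genes Myl2 and Hey2; lines only join the values of 1 gene, since arrays have no order. Mybphl, Vsnl1 and Sln lie lowest in DN-MCU neonate 3, whereas Myl2 stays near 0. Hey2 varies more than Myl2, with signals of 11.08, 10.36 and 10.88 in DN-MCU neonates and 10.87, 10.62 and 10.69 in WT neonates.

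Markers of some other tissues also had lower means in DN-MCU neonates. All 8 of 8 epicardial and mesothelial markers were measured, and all had a lower mean in DN-MCU neonates, with a median of -0.81 (46.8% of all probe sets were lower). None passed in limma, and 5 had an unadjusted p under 0.05 (7.27% of all). Their mean signal was 6.40, 6.47 and 6.16 in DN-MCU neonates and 6.77, 7.70 and 6.82 in WT neonates, highest in WT neonate 2. Of 6 erythroid markers 2 were measured, at 7.63, 7.89 and 8.30 in DN-MCU neonates and 8.93, 9.61 and 8.36 in WT neonates. The endocardial markers averaged 7.68, 7.48 and 7.12 with DN-MCU and 7.56, 7.87 and 7.61 in WT neonates. The epicardial mean took the order 3, 1, 2 of the atrial genes and the other 2 did not, and the part of these tissues in the result was not tested. Sinoatrial node genes (5 of 8 measured) had a neonatal median of 0.09.

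Age was compared within each genotype, adult minus neonate. In WT hearts 5 of 8 genes passed limma's test, near the share of all probe sets that did (50.8%, with 22.6% higher and 28.2% lower), and they went both ways. Mybphl rose 3.72-fold (1.89, SE 0.21, limma adjusted p = 0.000689), Stard10 by 0.76 (SE 0.21, adjusted p = 0.0257) and Nppa by 0.44 (SE 0.10, adjusted p = 0.0115). Vsnl1 fell (-2.97, SE 0.47, limma adjusted p = 0.0027), as did Bmp10 (-1.04, SE 0.33, adjusted p = 0.0395). With 1 of 3 WT adults above the filter level (3.35), Vsnl1 passed the filter through its neonates, and the dim end of the scale limits the size of its fall. The light chains did not pass, Myl4 at 0.20 (SE 0.10, limma adjusted p = 0.146) and Myl7 at -0.31 (SE 0.13, adjusted p = 0.0948), although neither overlapped between ages, as 65.5% of all probe sets did not. Dkk3 was at -0.28 (SE 0.19, limma adjusted p = 0.251), while its second probe set fell (-0.52, SE 0.16, adjusted p = 0.0392). Bmp10 lost the call without any 1 of WT adults 1, 2 or 3 (limma adjusted p = 0.0688, 0.0961 and 0.0909) or WT neonate 2 (0.0677), and it was at -0.65 without WT neonate 3. Stard10 lost it without WT adult 1 (limma adjusted p = 0.0521) or WT neonate 1 or 3 (0.0848 and 0.0844). Without a filter Bmp10 (limma adjusted p = 0.106) and Stard10 (0.0623) did not pass, Stard10 did not with 1 shared spread (0.129), and group weights ended the calls of Stard10 (0.141) and Nppa (0.0557).

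In DN-MCU hearts 4 of 8 genes passed, where 33.2% of all probe sets did (14.6% higher, 18.6% lower). Mybphl rose 12.6-fold (3.65, SE 0.64, limma adjusted p = 0.00752) and Nppa 2.04-fold (1.03, SE 0.21, adjusted p = 0.0116). Myl4 rose by 0.84 (SE 0.26, limma adjusted p = 0.0485) and Vsnl1 fell (-1.14, SE 0.24, adjusted p = 0.0136), where 0 of 3 DN-MCU adults were above the filter level and the size is limited in the same way. Stard10 (1.42, SE 0.46, limma adjusted p = 0.0556), Myl7 (-0.39, SE 0.29), Bmp10 (-0.25, SE 0.16) and Dkk3 (0.15, SE 0.35) did not pass. Myl4 lost its call without any 1 of the DN-MCU arrays except neonate 2 (limma adjusted p between 0.0573 and 0.134). Without DN-MCU neonate 1 Nppa (limma adjusted p = 0.0543) and Vsnl1 (0.057) were lost too and 1 gene, Mybphl, was left, and Vsnl1 was lost without DN-MCU neonate 2 (0.061). Group weights ended the calls of Vsnl1 (limma adjusted p = 0.291) and Myl4 (0.0975), and Myl4 did not pass with medians subtracted (0.0872) or without a filter (0.096).

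Of the 14 other atrial genes, 8 passed with age in WT hearts, 5 higher and 3 lower, and 5 in DN-MCU hearts, 4 higher and 1 lower. These counts are near the shares over all probe sets, 50.8% in WT hearts and 33.2% in DN-MCU hearts. Sln rose by 0.61 in WT hearts (SE 0.19, limma adjusted p = 0.0395) and was at 0.96 in DN-MCU hearts (SE 0.51, adjusted p = 0.186). The Sln call in WT hearts was lost without WT adult 2 (limma adjusted p = 0.0996), WT adult 3 (0.0998), WT neonate 1 (0.124) or WT neonate 3 (0.124). It was also lost with medians subtracted (limma adjusted p = 0.0948), without a filter (0.0828), with group weights (0.353) and with 1 shared spread (0.256). Fgf12 fell in WT hearts (-0.69, limma adjusted p = 0.0192), a call lost without WT adult 2 (0.0619), WT neonate 2 (0.0625) or WT neonate 3 (0.0608), with quantile normalization (0.0539), group weights (0.462) or 1 shared spread (0.368).

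**Figure D5:**
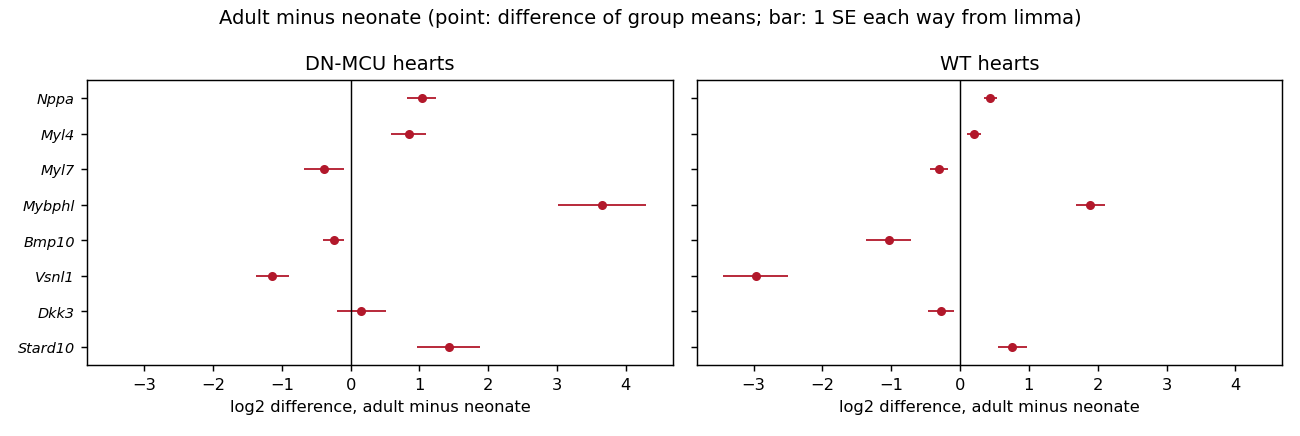
Difference of log2 group means, adult minus neonate (horizontal axis), in DN-MCU hearts (left) and WT hearts (right) for the 8 atrial markers; points are differences and bars 1 SE each way from limma (n = 3 per group). Mybphl lies farthest to the right in both genotypes, at 3.65 and 1.89, and Vsnl1 farthest to the left, at -1.14 and -2.97.

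Whether the construct acted differently at the 2 ages was tested as the difference of the genotype effects, adult minus neonatal, over all 12 arrays. None of the 8 genes passed in limma, where 0.786% of probe sets did, and 4 had an unadjusted p under 0.05 (9.22% of all): Vsnl1 (1.83, SE 0.56, adjusted p = 0.262), Mybphl (1.76, SE 0.73, adjusted p = 0.482), Myl4 (0.64, SE 0.28, adjusted p = 0.521) and Nppa (0.59, SE 0.22, adjusted p = 0.402). The Nppa and Myl4 means were higher with DN-MCU in adults and lower in neonates, where their arrays overlapped between genotypes, and neither difference passed at either age. Myl7 had a lower mean with DN-MCU at both ages, with a difference of effects of -0.08 (SE 0.33, limma adjusted p = 0.984). Vsnl1 passed without WT neonate 3 (limma adjusted p = 0.0496), but its adult signals, with 0 of 3 DN-MCU and 1 of 3 WT adults above the filter level, leave no room for an adult difference as large as the neonatal one. This test assumes 1 spread for all 12 arrays, although the adult arrays varied more.

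Among other myosin light chains Myl1, the essential chain of fast skeletal muscle, did pass. It stood at 13.92, 13.87 and 13.79 in DN-MCU adults and 12.71, 12.76 and 13.03 in WT adults, and at 10.68, 11.25 and 10.26 in DN-MCU neonates and 11.79, 11.84 and 11.62 in WT neonates. It was thus higher with DN-MCU in all adult arrays and lower in all neonatal ones, in the neonatal order 3, 1, 2 of the atrial genes. The difference of effects was 2.05 (SE 0.31, limma adjusted p = 0.0152). It did not pass with group weights (limma adjusted p = 0.12), with the replicate block (0.0783) or without DN-MCU neonate 1 (0.0583), WT neonate 1 (0.0575) or WT neonate 2 (0.0553). Neither genotype difference alone passed in limma, at 1.03 (SE 0.17, adjusted p = 0.0859) in adults and -1.02 (SE 0.25, adjusted p = 0.52) in neonates. Of 7 skeletal muscle markers 3 were measured, with Actn3, Myh1, Myh4 and Tnnt3 below the filter.

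The genes whose deviations over all 12 arrays were most like the mean of the members, among 20773 probe sets, were Faap100 (r = 0.979), 2810408I11Rik (0.961), 4931431B13Rik (0.951), E2f1 (0.948) and Med31 (0.947). Such a list is a description of 12 arrays in which the neonates carry most of the members' variation. Sln was at rank 20 with r = 0.908, with 0.996 in the neonatal arrays and -0.906 in the adult ones. No other gene of the atrial list was among the first 20.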

How the data were processed

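The table of log2 signals was deposited by the authors, from Affymetrix 3′ IVT arrays hybridised with biotinylated cRNA from 500 ng of total RNA, per the labels' protocols. Per the submitters' processing notes the software was Partek, version unstated, and no label gives the normalization. The values are array signals, so their number limits the precision. Of 45101 probe sets, 64 controls were removed and 24176 kept, those with at least 3 of 12 values above the median of all values (3.35). The annotation gave 34945 probe sets 1 gene and 932 several, and probe sets with several genes were not named.

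Groups came from the sample titles. limma 3.58.1 in R 4.3.3 was fitted with the groups compared, and with all 12 arrays for the difference of genotype effects; p-values were adjusted by Benjamini-Hochberg over all probe sets kept, at 0.05. The genes and lists were chosen with earlier results of these data known. The text could name all members, any list gene that passed (at most 4 per list and direction), a few fixed atrial and light chain genes and the 5 genes most like the members; not all of these are printed. Fhl2 and Fgf12 count among genes that passed, and Nr2f1, Nkx2-5, Tbx5, Hey2, Irx4 and the tissue markers were added for their roles.

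Same-numbered neonates deviated from their group means with correlations of 0.133, 0.223 and 0.283 over probe sets, so the numbers were taken as pairs. Neonates of different numbers reached up to 0.0902, so this pairing rests on weak correlations in the same data. In adults the same-numbered r were -0.381, 0.41 and -0.428, and the highest r was 0.579, between DN-MCU adult 3 and WT adult 1. What the numbers stand for is not stated. Alternatives were quantile normalization, subtracted array medians, no filter and a stricter one (above 7.25), weights for groups or single arrays, 1 shared spread, the replicate block, each array left out, and, chosen after seeing the data, DN-MCU adult 3 and WT adult 1 left out together.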

Additional observations from a re-analysis of the deposited data

Results flagged for a closer look

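Flagged here were 3 genes, by a difference of effects that passed or, for Fgf12, by the order of its arrays alone. The difference is the adult minus the neonatal effect of DN-MCU on the log2 scale. For Myl1 this was 2.045 (limma adjusted p = 0.0152). For Fhl2, a LIM protein of ventricular muscle, it was -1.188 (limma adjusted p = 0.0443): its values were 12.99, 13.20 and 12.84 in DN-MCU adults and 14.11, 14.24 and 14.12 in WT adults, against 13.57, 13.34 and 13.15 in DN-MCU neonates and 13.54, 13.17 and 13.25 in WT neonates. The Fhl2 call was lost in 12 of 20 alternatives, with adjusted p up to 0.166. Fgf12 had a difference of effects of 2.819 that did not pass (limma adjusted p = 0.233). It stands here because, on its brightest probe set, its adult arrays were all higher than its neonatal arrays in DN-MCU hearts and all lower in WT hearts. On its dimmer probe sets the ages overlapped in both genotypes. Their differences of effects were 1.45 (limma adjusted p = 0.696) and 1.65 (adjusted p = 0.738).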

How the results depend on the processing

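Of 590 values of single member differences under alternatives, 546 kept direction and side of the threshold, 24 lost the call, 7 gained it and 13 changed sign. For 626 values of other named genes these counts were 564, 32, 21 and 9. The cause of the changes was not tested.

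Member probe sets called in adults (0) were 1 with array weights and 0 with each array left out. Other atrial genes called in adults (0) were 1 with the stricter filter, 4 with array weights, 3 with 1 shared spread and between 0 and 2 with an array left out. With age, 6 member probe sets were called in WT hearts, 3 with group weights and between 3 and 5 with an array left out; in DN-MCU hearts 4 were called, 2 with group weights and between 1 and 3 with an array left out. For the difference of effects (0) the count was between 0 and 1 with an array left out. Mybphl kept its age calls under every alternative run, in both genotypes. Vsnl1 kept its own in WT hearts under the 12 alternatives that included it, and the stricter filter (above 7.25) removed it. The replicate block left the member calls at 0 in neonates and for the difference of effects, and changed no member call. It ended the Myl1 call given in the report (limma adjusted p = 0.0783) and the Fhl2 call (limma adjusted p = 0.128).

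Signs changed for log2 differences near 0. In adults Bmp10 was 0.006438 with quantile normalization and between -0.05794 and 0.01687 with an array left out. Dkk3 was 0.005096 with quantile normalization, 0.005067 with medians subtracted, 0.1219 with array weights, 0.134 without DN-MCU adult 3 and WT adult 1, and between -0.1761 and 0.1709 with an array left out. Myl2 was 0.04054 with quantile normalization and between -0.05103 and 0.01842 with an array left out. With an array left out, the neonatal difference lay between -0.2641 and 0.3868 for Nppb, -0.0126 and 0.1263 for Corin and -0.07198 and 0.1472 for Fhl2. The age difference of Dkk3 in DN-MCU hearts lay between -0.1189 and 0.4893, and the difference of effects of Myl7 between -0.352 and 0.1736.

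Over all probe sets, 112 were called in adults, 74 without a filter, 297 with group weights, 964 with array weights, 1152 with 1 shared spread, 16 with the replicate block, 57 without DN-MCU adult 3 and WT adult 1, and between 17 and 175 with an array left out. In neonates 1 was called, 33 with group weights, 0 with the replicate block and between 0 and 4 otherwise. With age, the stricter filter gave 7917 against 12285 in WT hearts and 4856 against 8026 in DN-MCU hearts, where array weights gave 12590 and leaving out an array between 4543 and 12840. For the difference of effects (190), array weights gave 1216, the replicate block 39, leaving out both arrays 1112, and leaving out 1 array between 70 and 636.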

Other observations

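Over the 6 neonatal arrays alone, an alternative chosen after seeing the data, Slc2a13, Siva1, Igfbp2, Micos10 and Grk3 were most like the mean of the 8 atrial genes, each with r of at least 0.998, and Sln was at rank 9 with r = 0.996. With 20773 probe sets compared over 6 arrays, such values are a description of these arrays.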
